A study of Mus musculus with 6 samples.

Results

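The genes described here are the 10 integrin chains that mark and position T cells, Itgae, Itgal, Itgav, Itga4, Itga6, Itgb1, Itgb2, Itgb3, Itgb7 and Itgb8. They were taken by gene symbol from a table of raw read counts, and all 10 symbols were found among its 32285 rows. The counts come from bulk RNA-seq of Tregs, the Foxp3-expressing CD4+ T cells that restrain immune responses, sorted as CD4+CD25+ cells from spleens of C57BL/6 mice. The comparison asks how gene expression in Tregs differs once the zinc finger protein Zfp335 is deleted in adult mice.

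There were 3 libraries per group. KO libraries came from ERCre Zfp335fl/fl mice, in which both Zfp335 alleles are flanked by loxP sites and Cre recombinase is fused to an estrogen receptor domain that tamoxifen activates. WT libraries came from tamoxifen-treated ERCre mice according to the methods, and from littermates with the wild-type genotype according to the labels. Per the methods, the animals were 6 weeks old and tamoxifen was injected on day 1, on day 3 and on day 5. The methods place the sacrifice of the mice on day 7. This Cre acts in any cell that carries it and is not limited to Tregs. No source used here states that each library was 1 mouse, so p-values measure the spread between these libraries, which may be technical.

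Integrins are surface receptors made of 1 alpha and 1 beta chain, and a chain reaches the cell surface only when paired. Itgal pairs with Itgb2 to form LFA-1, which binds ICAM proteins and holds a T cell to an antigen-presenting cell or a vessel wall. Itgb7 pairs with Itgae to form the E-cadherin receptor of T cells in epithelia and with Itga4 to form the gut homing receptor for MAdCAM. Itgb1 pairs with Itga4, Itga6, Itgav and other alpha chains into receptors for VCAM, fibronectin and laminins. Itgav also pairs with Itgb3, which binds vitronectin and osteopontin, and with Itgb8, which on Tregs frees active TGF-β from its latent complex.

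Library totals ran from 133283969 to 209041812 counts. They were scaled by edgeR's TMM factors, which lay between 0.987 and 1.014, and levels are in CPM, that is, as counts brought to a common library size of 1000000. KO was compared with WT for the 17307 genes that passed the edgeR filter on low counts, by the edgeR quasi-likelihood test, and p-values were adjusted over all of these genes by the Benjamini-Hochberg method, and a gene was called at an adjusted p under 0.05. Log2 fold changes are KO against WT, with their standard error (SE). Zfp335 was at 14.8 ± 0.451 CPM (SD, n = 3) in KO and 120.1 ± 4.67 CPM (SD, n = 3) in WT. The groups also differed in Xist, the RNA that coats a silenced X chromosome in female cells, at 134.6 ± 10.4 CPM in KO against 0.272 ± 0.132 CPM in WT (SD, n = 3 each). By this RNA the KO libraries look female and the WT libraries male. Sex thus appears to run with genotype, and for every KO against WT difference reported here the 2 cannot be told apart. Treg markers were present, with Foxp3 at 1136 CPM in WT and 1052 CPM in KO on average, and of the 7 listed Ctla4 and Tnfrsf18 were called higher and Foxp3 and Il2ra lower. Of these calls only that of Ctla4 held in every fit with a library left out: without KO replicate 2 those of Foxp3 (log2 fold change -0.11, edgeR adjusted p = 0.0922), Il2ra (-0.14, adjusted p = 0.0523) and Tnfrsf18 (0.13, adjusted p = 0.0850) were lost, that of Foxp3 also without KO replicate 1 (-0.12, adjusted p = 0.0508) or KO replicate 3 (-0.11, adjusted p = 0.0703), and that of Tnfrsf18 also without WT replicate 2 (0.094, adjusted p = 0.197), KO replicate 1 (0.081, adjusted p = 0.212) or KO replicate 3 (0.14, adjusted p = 0.0553). Markers of other cell types were lower in KO or not called. All 6 B cell markers fell, with a sum of 57.9 to 63.1 CPM in WT and 27.7 to 29.1 CPM in KO, all 8 neutrophil markers fell (21.0 to 27.8 against 1.63 to 2.26 CPM), and all 7 red cell markers fell (37.3 to 44.4 against 1.89 to 2.33 CPM). Of the tested markers, 2 of 8 myeloid (89.6 to 91.6 against 75.0 to 76.2 CPM), 4 of 6 dendritic (6.29 to 7.37 against 3.79 to 4.26 CPM), 2 of 6 NK and CD8 (27.1 to 27.9 against 23.4 to 25.4 CPM) and 0 of 3 platelet markers (1.89 to 2.21 against 2.15 to 2.34 CPM, summed over all 10 listed) fell. In bulk RNA, fewer cells of a type and less RNA per cell cannot be told apart, and the part of other cells in the results was not tested.

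Expressed per kb of the longest annotated transcript, the 10 chains spanned a 137-fold range in WT Tregs. Itgb7 was the most abundant at 444 ± 42.7 CPM per kb (SD, n = 3), followed by both LFA-1 chains, Itgb2 at 246 ± 7.49 and Itgal at 226 ± 11.2 CPM per kb. A middle group held Itgae at 78.5 ± 1.67, Itga6 at 58.6 ± 0.893, Itgb1 at 52.5 ± 1.19 and Itga4 at 27.7 ± 1.40 CPM per kb. The least abundant were Itgb3 at 13.6 ± 0.394, Itgav at 5.24 ± 0.0579 and Itgb8 at 3.24 ± 0.0572 CPM per kb. No pair of neighbours in this order overlapped between their WT libraries, and the order of the means was the same in KO. The order of Itga6 and Itgb1 depended on the length used: per kb of all annotated exons joined, Itga6 was at 28.0 ± 0.427 and Itgb1 at 49.0 ± 1.11 CPM per kb (SD, n = 3 WT libraries), while the other 8 chains kept their places. Of the 17 other integrin chains, Itga5 was the most abundant at 3.28 CPM per kb in WT, close to Itgb8, and 9 were under 1 CPM per kb.

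**Figure D1:**
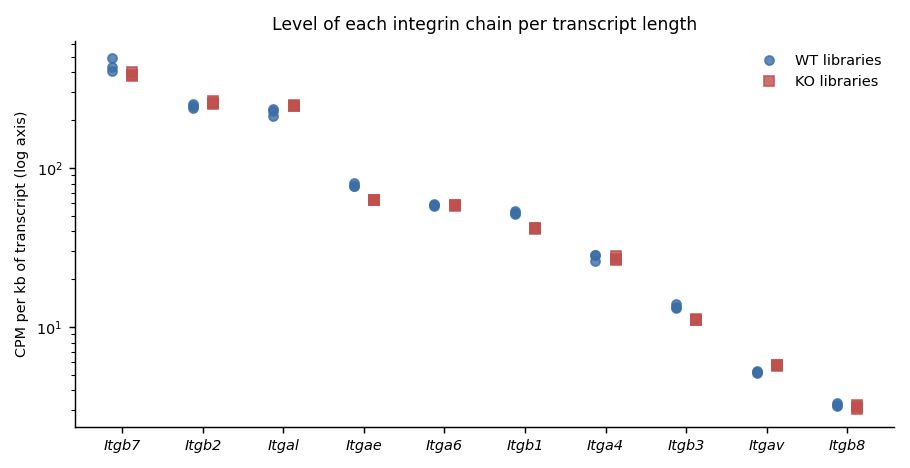
Level of each chain in CPM per kb of its longest transcript, on a log axis, with circles for the 3 WT and squares for the 3 KO libraries. Chains are ordered by their WT mean, from Itgb7 at 444 to Itgb8 at 3.24 CPM per kb, and the spread within a chain is small against the distance between most neighbours.

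In KO Tregs 4 of the 10 chains fell, Itgae, Itgb1, Itgb3 and Itgb7, and 2 rose, Itgal and Itgav. Itgb2, Itga4, Itga6 and Itgb8 did not pass the test. The changes were modest in size, and none of the 10 reached the supplemental cutoffs of the study (at least 1.5-fold, P under 0.05, adjusted P under 0.1), which 6.95% of all tested genes reached. The study states these cutoffs for DESeq2 values of Tregs from younger mice with a Foxp3-driven Cre. Here they were applied to edgeR values of the ERCre libraries. Over all tested genes 24.1% were called, 12.0% higher and 12.1% lower in KO, and among genes at least as abundant as the lowest of the 10 chains the share was 34.7%. For 7 of the 10 chains the WT and KO libraries did not overlap, against 38.3% of all tested genes. That share covers all abundances, and the one among genes of like abundance was not taken. The median log2 fold change of the 10 was -0.035 and that of all tested genes -0.0042. Their median absolute log2 fold change was 0.13, beside 0.15 for all tested genes and 0.085 for the genes of like abundance.

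**Figure D2:**
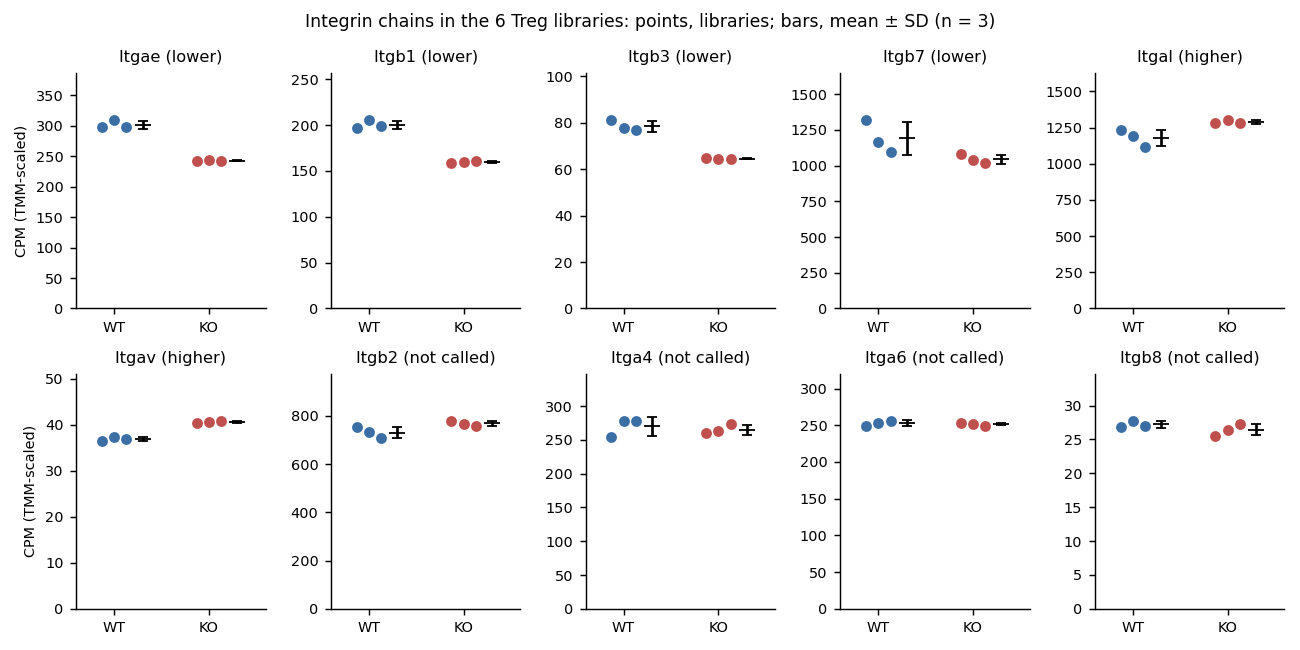
CPM of the 10 chains in each library, with points for libraries and bars for the mean ± SD (n = 3), each panel starting at 0. All 3 KO libraries lie below WT for Itgae, Itgb1, Itgb3 and Itgb7, and above WT for Itgal, Itgav and Itgb2.

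Promoters of 5 of the 10 genes were found in the RefSeq table of build GRCm38.p6, those of Itga4, Itgav, Itgb1, Itgb7 and Itgb8. Shown here are the stretches in front of the chains that fell (Itgb1, Itgb7), of one that rose (Itgav) and of Itga4, which pairs with both of the former and did not pass the test. Each is 160 bases, printed 5′ to 3′ on the strand of the gene, with matches to the searched motifs in capitals.

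Itgb1: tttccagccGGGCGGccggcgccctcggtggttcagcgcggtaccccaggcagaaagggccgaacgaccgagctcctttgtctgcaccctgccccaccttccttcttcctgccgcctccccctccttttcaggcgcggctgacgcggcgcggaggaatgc
Itgb7: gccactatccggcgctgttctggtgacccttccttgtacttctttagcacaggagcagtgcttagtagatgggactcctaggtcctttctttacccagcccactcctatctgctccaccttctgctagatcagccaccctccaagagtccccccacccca
Itgav: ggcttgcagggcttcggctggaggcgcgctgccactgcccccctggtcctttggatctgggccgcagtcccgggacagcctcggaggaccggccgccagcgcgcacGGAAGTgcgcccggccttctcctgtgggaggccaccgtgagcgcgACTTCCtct
Itga4: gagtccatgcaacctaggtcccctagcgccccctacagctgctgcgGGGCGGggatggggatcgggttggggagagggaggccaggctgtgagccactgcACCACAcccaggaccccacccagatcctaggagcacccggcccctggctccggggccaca

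These are chr8:128685494-128685653 on the plus strand for Itgb1, chr15:102231945-102232104 on the minus strand for Itgb7, chr2:83724237-83724396 on the plus strand for Itgav and chr2:79255266-79255425 on the plus strand for Itga4. They end 1 base before the transcription start, except that of Itgb7, which ends 10 bases before it, and none overlaps an annotated exon. The motifs, searched on both strands of the 250 bases before the start, were the GC box GGGCGG, the RUNX core TGTGGT, the ETS core GGAAGT, the CCAAT box CCAAT and the TATA box TATAAA. Over 32851 promoters of the table, 32.7% held the GC box, 14.0% the RUNX core, 19.7% the ETS core, 33.8% the CCAAT box and 12.4% the TATA box. The Itgb1 stretch held a GC box at position -151 from the start, and that of Itga4 a GC box at -114 and, on the opposite strand, a RUNX core at -60. The Itgav stretch held ETS cores at -54 and, on the opposite strand, at -9, whereas Itgb7 had no match in its 250 bases. Itgb8, whose 250 bases held a CCAAT box at -126, is not printed since they lie within an annotated gene. The stretch of Itgb7 was 55.6% G and C, against 69.4% for Itgb1, 70.0% for Itga4 and 72.5% for Itgav. These matches describe the letters only and show no binding.

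Itgb1, the shared beta chain of the matrix receptors, had the largest fitted change of the 10, close to that of Itgae. It lies at chr8:128685654-128733200 on the plus strand and measured 196.6, 205.3 and 198.5 CPM in WT replicates 1 to 3 and 158.9, 159.3 and 161.1 CPM in KO replicates 1 to 3. Every KO library was below every WT library, and the gap between groups was wider than the range within either. The mean fell by 20.2%, from 200.2 ± 4.54 to 159.7 ± 1.18 CPM (SD, n = 3), a log2 fold change of -0.33 (95% interval -0.40 to -0.26, SE 0.032, adjusted p = 8.47e-06 by edgeR).

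None of its alpha partners among the 10 was called lower. Itga4, at chr2:79255426-79333123 on the plus strand, measured 254.4, 277.6 and 278.8 CPM in WT and 259.6, 262.8 and 273.5 CPM in KO. The groups overlapped, with WT replicate 1 the lowest of the 6 libraries. The log2 fold change of Itga4 was -0.026 (95% interval -0.11 to 0.060, SE 0.040, adjusted p = 0.697 by edgeR). Itga6, the laminin-binding alpha chain at chr2:71745616-71858416 on the plus strand, measured 248.7, 253.0 and 256.4 CPM in WT and 252.6, 251.6 and 249.6 CPM in KO. The KO libraries lay inside the WT range. For Itga6 the log2 fold change was -0.0083 (95% interval -0.074 to 0.058, SE 0.031, adjusted p = 0.884 by edgeR). Both share sequence with other transcripts, over 7.51% of the 50-base stretches of Itga4 and 5.31% of those of Itga6, and Itga4 overlaps Cerkl on the opposite strand, so their counts are less certain than those of Itgb1, which shares none.

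The mucosal receptor chains Itgae and Itgb7 both fell. Itgae, which encodes CD103 and marks Tregs of epithelia and of the effector state, lies at chr11:73090583-73147446 on the plus strand. It measured 298.0, 309.2 and 298.3 CPM in WT and 242.8, 243.3 and 242.0 CPM in KO, with no overlap and hardly any spread among the KO libraries. The mean fell by 19.6%, from 302 ± 6.42 to 243 ± 0.612 CPM (SD, n = 3), a log2 fold change of -0.31 (95% interval -0.38 to -0.25, SE 0.031, adjusted p = 8.58e-06 by edgeR). The gene Haspin lies within Itgae on the opposite strand, and whether the counting used strand is not given in the sources used here.

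Itgb7, the beta chain of both gut receptors, at chr15:102215995-102231944 on the minus strand, measured 1317, 1163 and 1093 CPM in WT and 1080, 1041 and 1017 CPM in KO. The groups did not overlap, but the lowest WT library was only just above the highest KO library, and WT replicate 1 stood above the other WT libraries. The mean fell by 12.2%, from 1191 ± 115 to 1046 ± 31.6 CPM (SD, n = 3), a log2 fold change of -0.19 (95% interval -0.32 to -0.058, SE 0.058, adjusted p = 0.0394 by edgeR). Without WT replicate 1 the log2 fold change of Itgb7 was -0.11 (edgeR adjusted p = 0.0211). The call was lost with WT replicate 2 left out (log2 fold change -0.20, adjusted p = 0.0675), and with KO replicate 1 (-0.21, adjusted p = 0.0582), KO replicate 2 (-0.18, adjusted p = 0.0974) or KO replicate 3 (-0.17, adjusted p = 0.121) left out, as well as with limma-voom (adjusted p = 0.0565) and without the filter on low counts (adjusted p = 0.120).

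Of the LFA-1 pair, Itgal rose and Itgb2 did not pass the test. Itgal, the ICAM-binding alpha chain at chr7:127296260-127335138 on the plus strand, measured 1231, 1189 and 1116 CPM in WT and 1285, 1301 and 1279 CPM in KO. All KO libraries were above all WT libraries, and the KO libraries were closer to each other than the WT libraries. The means were 1179 ± 58.3 CPM (WT) and 1288 ± 11.4 CPM (KO; SD, n = 3), a rise of 9.28% (log2 fold change 0.13, 95% interval 0.048 to 0.21, SE 0.037, adjusted p = 0.0237 by edgeR). The Itgal call was lost without WT replicate 2 (log2 fold change 0.14, adjusted p = 0.0728), KO replicate 1 (0.13, adjusted p = 0.0733), KO replicate 2 (0.12, adjusted p = 0.105) or KO replicate 3 (0.13, adjusted p = 0.0651), and with upper-quartile scaling (0.11, adjusted p = 0.0592) or scaling to library size only (0.097, adjusted p = 0.0751).

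Itgb2, the common beta chain of leukocyte integrins, at chr10:77530252-77565708 on the plus strand, measured 753.0, 731.6 and 708.5 CPM in WT and 780.6, 768.2 and 756.7 CPM in KO. The KO libraries were all above the WT libraries by a narrow margin. The log2 fold change of Itgb2 was 0.072 (95% interval 0.00069 to 0.14, SE 0.033, adjusted p = 0.140 by edgeR), and only with WT replicate 1 left out was it called (0.092, edgeR adjusted p = 0.0240).

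Of the αv receptors, the alpha chain rose and one of its beta chains fell. Itgav, at chr2:83724397-83806916 on the plus strand, measured 36.5, 37.3 and 37.0 CPM in WT and 40.4, 40.7 and 40.9 CPM in KO. The groups were apart, with less than 1 CPM of spread inside each. WT averaged 37.0 ± 0.408 CPM and KO averaged 40.7 ± 0.250 CPM (SD, n = 3), a rise of 10.1% (log2 fold change 0.14, 95% interval 0.053 to 0.22, SE 0.040, adjusted p = 0.0217 by edgeR). The Itgav call was lost without WT replicate 2 (log2 fold change 0.15, adjusted p = 0.0610), KO replicate 1 (0.14, adjusted p = 0.0623), KO replicate 2 (0.14, adjusted p = 0.0803) or KO replicate 3 (0.13, adjusted p = 0.0759), and with scaling to library size only (0.11, adjusted p = 0.0674). Itgav shares 5.40% of its 50-base stretches with Gm13684, an antisense transcript, so its counts are less certain.

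Itgb3, the vitronectin receptor chain at chr11:104608000-104670476 on the plus strand, measured 81.1, 77.7 and 76.7 CPM in WT and 64.9, 64.5 and 64.4 CPM in KO. No library of either group came near the other group. The mean of Itgb3 fell by 17.8%, from 78.5 ± 2.28 to 64.6 ± 0.242 CPM (SD, n = 3), a log2 fold change of -0.28 (95% interval -0.36 to -0.20, SE 0.037, adjusted p = 9.3e-05 by edgeR). Platelets and megakaryocytes also carry Itgb3. Of their 10 listed markers 3 were tested and none was called, the sum ran from 1.89 to 2.21 CPM in WT and from 2.15 to 2.34 CPM in KO. Gp1ba (1.36 CPM in WT, 1.64 CPM in KO) and Gp5 (0.258 and 0.340 CPM) were above WT in every KO library, and Gp9, which did not pass the filter, had 12, 6 and 8 counts in WT and 0 in each KO library.

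Itgb8, the chain that frees active TGF-β on Tregs, lies at chr12:119158022-119238802 on the minus strand and measured 26.9, 27.8 and 27.0 CPM in WT and 25.6, 26.5 and 27.3 CPM in KO. The groups overlapped, since KO replicate 3 was above 2 of the WT libraries. For Itgb8 the log2 fold change was -0.043 (95% interval -0.14 to 0.058, SE 0.047, adjusted p = 0.563 by edgeR).

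Taken one gene at a time by a two-sided exact permutation test, each of the 7 chains without overlap had p = 0.1, the smallest that 3 against 3 libraries allow, and Itgb8, Itga6 and Itga4 had exact p = 0.3, 0.6 and 0.7. The calls of Itgae, Itgb1 and Itgb3 held in all 16 alternative settings, with log2 fold changes between -0.35 and -0.30 for Itgae, -0.36 and -0.31 for Itgb1, and -0.31 and -0.26 for Itgb3.

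Within each library the balance of alpha to beta chain was compared for 8 known pairs, as the ratio of their counts per kb. The difference between groups in such a ratio does not depend on the scaling between libraries or on the transcript lengths. In 6 of the 8 pairs every KO ratio was above every WT ratio, each with a two-sided exact permutation p = 0.1, the smallest possible, and 0.133 after Benjamini-Hochberg adjustment over the 8 pairs. The pairs are not independent, since Itgb1 and Itgav each enter 3 of them, so the count in part restates the values of the single chains, of which 7 of 10 did not overlap (38.3% of all tested genes).

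The shift was widest for the pairs with Itgb1 or Itgb3. The log2 ratio of Itgav to Itgb1 was -3.32, -3.35 and -3.31 in WT and -2.86, -2.86 and -2.86 in KO, which is 0.0999 ± 0.00132 Itgav per Itgb1 in WT and 0.138 ± 0.000331 in KO (SD, n = 3). The ratio of Itgav to Itgb3 was 0.386 ± 0.0146 in WT and 0.516 ± 0.00492 in KO, a log2 difference of 0.42. In both pairs the rise of Itgav and the fall of its partner added up.

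Itga6 to Itgb1 went from 1.12 ± 0.0261 to 1.39 ± 0.0187 (log2 difference 0.32) and Itga4 to Itgb1 from 0.527 ± 0.0215 to 0.649 ± 0.0130 (0.30), so relative to each of its 3 alpha chains there was less Itgb1 RNA in KO. Per kb of all exons joined, the WT ratio of Itga6 to Itgb1 was 0.571. Itgav to Itgb8 went from 1.62 ± 0.0149 to 1.83 ± 0.0474 (0.18). The LFA-1 pair moved least of these 6, with Itgal to Itgb2 at 0.917 ± 0.0184 in WT and 0.953 ± 0.0150 in KO (0.057).

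The Itgb7 pairs did not separate the groups. Itgae to Itgb7 ran from 0.158 to 0.190 in WT and from 0.157 to 0.166 in KO, a log2 difference of -0.13 (exact permutation p = 0.3, adjusted over the 8 pairs p = 0.343). Itga4 to Itgb7 ran from 0.0531 to 0.0700 in WT and from 0.0660 to 0.0739 in KO, a log2 difference of 0.16 (exact permutation p = 0.4, adjusted p = 0.4). In both, WT replicate 1 had the lowest ratio of its group, and that library had the highest Itgb7 level.

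**Figure D3:**
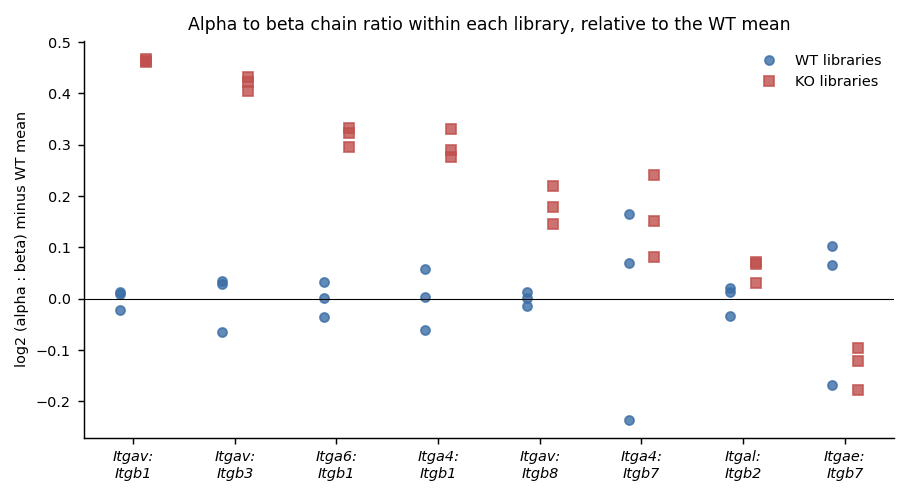
Log2 ratio of alpha to beta chain counts per kb in each library, minus the mean of the WT libraries, for 8 pairs, with circles for WT and squares for KO. The 3 KO libraries lie above all WT libraries in 6 pairs, widest for Itgav to Itgb1 at 0.46, and overlap with WT for both Itgb7 pairs.

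Beyond these 10 chains the mouse family list held 17 others, of which 16 passed the filter on low counts, 3 rose, 5 fell and 8 were not called. Itga8, at 0 to 9 counts per library, was not tested. Over all 26 tested chains 5 rose and 9 fell, while of all tested genes 12.0% were called higher and 12.1% lower. The median log2 fold change of the 16 was -0.36. Among those that rose, Itgad, an alpha partner of Itgb2, measured 2.02, 2.47 and 2.02 CPM in WT and 4.62, 4.11 and 3.73 CPM in KO, with all KO libraries well above WT (log2 fold change 0.92, standard error 0.13, edgeR adjusted p = 0.000154). Itga2b, the platelet alpha chain, rose from 3.74 to 4.75 CPM (0.35, edgeR adjusted p = 0.0196). Without WT replicate 2 its log2 fold change was 0.28 (adjusted p = 0.110), without KO replicate 1 0.31 (adjusted p = 0.0783) and without KO replicate 3 0.35 (adjusted p = 0.0570). Itga5, the fibronectin receptor alpha chain that pairs with Itgb1, rose from 14.5 to 16.7 CPM (0.21, edgeR adjusted p = 0.0439), a call lost in 9 of 16 settings, among them each fit without a library but that without WT replicate 1, with log2 fold changes of 0.16 to 0.28.

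Those that fell include chains of other leukocytes. Itgam, the CD11b chain of myeloid cells, measured 5.41, 5.80 and 4.89 CPM in WT and 3.01, 3.40 and 3.02 CPM in KO, a complete separation (log2 fold change -0.78, standard error 0.10, edgeR adjusted p = 0.0001). Itgax, the CD11c chain of dendritic cells, was at 1.69 CPM in KO and 2.64 CPM in WT (-0.66, edgeR adjusted p = 0.00175). Itgb2l, a relative of Itgb2, had 12, 36 and 12 counts in WT and 0 in each KO library, which makes it at least 7.34-fold lower against a floor of 3 counts per library (edgeR adjusted p = 0.0120, and 0.0670 without WT replicate 2). These chains were lower in the same group as the summed markers of neutrophils (21.0 to 27.8 against 1.63 to 2.26 CPM) and dendritic cells (6.29 to 7.37 against 3.79 to 4.26 CPM). The myeloid markers were mixed: Lyz2 fell from 19.7 to 7.36 CPM (edgeR adjusted p = 1.02e-07) and made up most of the lower sum, Cd14 fell from 1.32 to 0.426 CPM (adjusted p = 0.00193), Csf1r was at 8.80 CPM in WT and 10.3 CPM in KO with all KO libraries above WT (adjusted p = 0.0821), and Adgre1 was at 1.64 and 1.67 CPM (adjusted p = 0.918). Cd68 was at 7.92 CPM in WT and 6.79 CPM in KO, with all KO libraries below WT (edgeR adjusted p = 0.0542). The part of neutrophils, dendritic cells and myeloid cells in the values of Itgam, Itgax, Itgb2l and Itgad was not tested.

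The collagen receptor alpha chain Itga2 measured 8.40, 11.4 and 10.4 CPM in WT and 5.80, 6.46 and 6.79 CPM in KO, without overlap (-0.66, edgeR adjusted p = 0.000634). Itgb4, the epithelial laminin receptor chain, was at 0.462 CPM in KO and 1.10 CPM in WT (-1.30, edgeR adjusted p = 0.00295). Itga1, Itga3, Itga7, Itga9, Itga10, Itga11, Itgb5 and Itgb6 were not called, with log2 fold changes between -0.78 and 0.083.

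**Figure D4:**
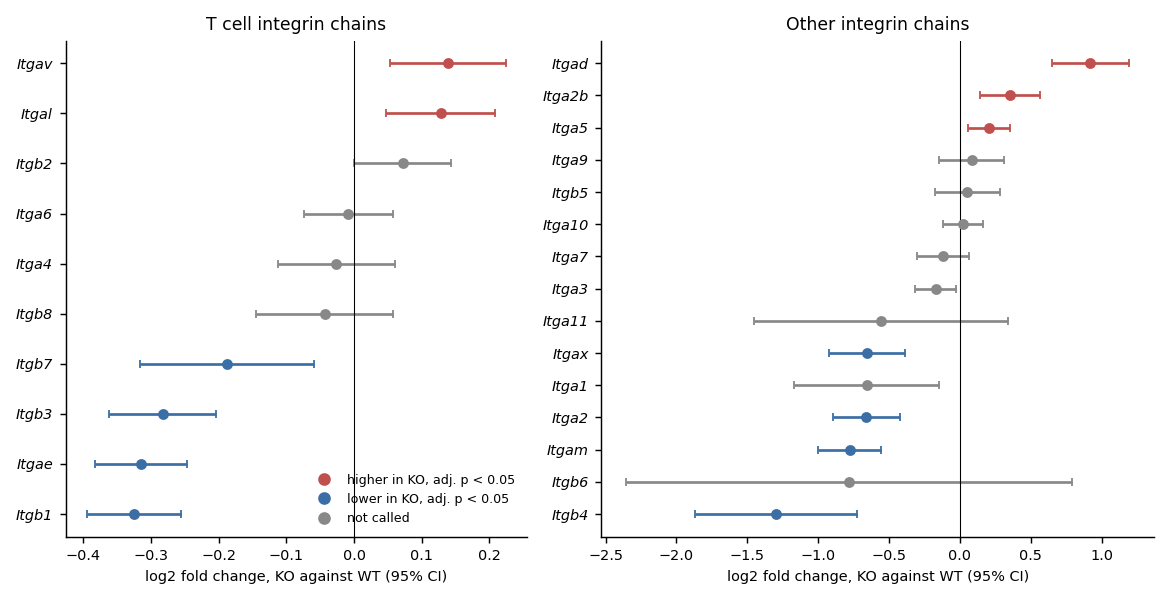
Log2 fold change of KO against WT with its 95% interval for the 10 T cell integrin chains (left) and 15 other tested chains (right), on different horizontal scales. Itgb2l, at 0 counts in KO, is not drawn. The 4 chains that fell and the 2 that rose on the left all lie between -0.4 and 0.2, while the right panel runs from Itgb4 at -1.30 to Itgad at 0.92.

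Integrin ligands were split in direction. Of 24 listed ligands and cofactors 22 were tested, 4 rose and 4 fell, with a median log2 fold change of 0.049. Beside this count, 12.0% of all tested genes were called higher and 12.1% lower. Lrrc32, which encodes GARP, the protein that tethers latent TGF-β to the Treg surface where Itgav and Itgb8 act on it, measured 432.9, 394.0 and 404.0 CPM in WT and 544.1, 546.5 and 528.6 CPM in KO. All KO libraries were above WT (log2 fold change 0.40, standard error 0.038, edgeR adjusted p = 6.18e-06). Tgfb1 itself was at 325 ± 5.69 CPM in WT against 327 ± 5.43 CPM in KO (SD, n = 3, edgeR adjusted p = 0.892). Vcam1, the ligand of Itga4 with Itgb1, rose from 4.51 to 5.08 CPM in WT libraries to 8.99 to 9.20 CPM in KO libraries (0.90, edgeR adjusted p = 2.12e-06). The laminin chain Lama5 rose (0.59, adjusted p = 5.11e-06), and so did Icam1 (0.22, adjusted p = 0.00131), whereas Icam2 fell (-0.16, adjusted p = 0.0168, all from edgeR).

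The ligands that fell most were at low levels, and so was Vcam1 among those that rose (4.85 CPM in WT on average). Spp1, which encodes osteopontin, measured 12.6, 11.3 and 7.65 CPM in WT and 2.02, 2.04 and 0.784 CPM in KO, far apart (-2.73, edgeR adjusted p = 0.00457). Fn1, which encodes fibronectin, fell by 0.86 on the log2 scale (edgeR adjusted p = 0.00125). Cdh1, the E-cadherin gene whose product Itgae with Itgb7 binds, fell by 0.86 as well, but at under 1.1 CPM and with the call lost without WT replicate 3 (-0.70, edgeR adjusted p = 0.0747), KO replicate 1 (-0.86, adjusted p = 0.0679), KO replicate 2 (-0.90, adjusted p = 0.0625) or KO replicate 3 (-0.81, adjusted p = 0.0794). Myeloid cells are a known source of Spp1 and Fn1. Of the 8 myeloid markers only Lyz2 and Cd14 were called, both lower. Among those not called, Csf1r was above WT in every KO library and Cd68 was below WT in every KO library. The part of myeloid cells in the values of Spp1, Fn1 and Vcam1 was not tested.

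Inside the cell, integrins are switched on by talin and kindlin, which bind the beta tail after the small GTPase Rap1 is activated. Of 20 such activators 18 were tested, 5 rose and 3 fell (median log2 fold change -0.034), beside 24.1% of all tested genes called. For Rap1 itself, Rap1b rose from 330 to 368 CPM (0.16, edgeR adjusted p = 0.00714). Rap1a was not called (-0.081, edgeR adjusted p = 0.130). Talin and kindlin RNA, Tln1 and Fermt3, were not called (-0.096, edgeR adjusted p = 0.0543, and -0.042, adjusted p = 0.445). Of the Rap1 exchange factors in the list, 3 rose, Rapgef1 from 337 to 394 CPM (0.23, adjusted p = 0.00035), Rapgef6 (0.19, adjusted p = 0.00299) and Rapgef2 (0.17, adjusted p = 0.00349), while Rasgrp2 was not called (-0.034, adjusted p = 0.576). Its relative Rasgrp1, also in the list, was not called either (0.011, adjusted p = 0.861). Among adaptors that act with Rap1 at the integrin, Skap1 fell from 184 to 153 CPM (-0.26, adjusted p = 4.47e-05) and Apbb1ip, which encodes RIAM, from 156 to 137 CPM (-0.19, adjusted p = 0.00122), but Rassf5, which encodes RAPL, and Fyb, which encodes ADAP, were not called (-0.058, adjusted p = 0.268, and -0.033, adjusted p = 0.585). The kinase Prkd2 fell (-0.16, adjusted p = 0.00361, all from edgeR).

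Negative regulators were tested for all 13 listed, 4 rose and 3 fell (median 0.047), beside 24.1% of all tested genes called. Rap1gap2, which turns Rap1 off, measured 16.8, 17.3 and 18.3 CPM in WT and 9.42, 10.5 and 10.4 CPM in KO, without overlap (-0.78, edgeR adjusted p = 1.59e-06). Flna, whose product competes with talin for the beta tail, measured 1650, 1584 and 1466 CPM in WT and 1295, 1274 and 1252 CPM in KO, again with every KO library lower (-0.30, adjusted p = 0.000146). Rasa3, a further GTPase activator for Rap1, fell too (-0.27, adjusted p = 3.61e-05). Sipa1l3 rose (0.26, adjusted p = 0.0011). Dok1 (0.19, adjusted p = 0.0240) and Sharpin (0.12, adjusted p = 0.0419) rose by less, and each of these 2 calls was lost in every fit that left out a library other than WT replicate 1, with log2 fold changes of 0.14 to 0.25 and of 0.095 to 0.16 over the 6 such fits.

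Focal adhesion linkers, which tie integrins to actin, had 23 of 24 tested, with 1 higher and 5 lower (median -0.027). The share called over all tested genes was 24.1%. Zyx fell (-0.21, edgeR adjusted p = 0.0011), as did Lpxn (-0.26, adjusted p = 0.00159) and Parvb, the last at under 1 CPM (-1.55, adjusted p = 0.0067). Vcl, which encodes vinculin, fell (-0.40, adjusted p = 0.0283) and Pxn, which encodes paxillin, rose (0.14, adjusted p = 0.0167). Both calls were lost without WT replicate 2 (Vcl -0.26, adjusted p = 0.179, Pxn 0.12, adjusted p = 0.0930), KO replicate 1 (-0.35, 0.109 and 0.13, 0.0805) or KO replicate 2 (-0.43, 0.0635 and 0.13, 0.0792), and that of Vcl also without KO replicate 3 (-0.42, adjusted p = 0.0701). Crk fell by 0.11 (adjusted p = 0.0393), a call kept, among the fits with a library left out, only without WT replicate 1 (-0.12), with a range of -0.13 to -0.099.

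Among 14 membrane partners of integrins, all tested, 4 rose and none fell (median -0.010). The share over all tested genes was 12.0% higher and 12.1% lower. Plaur, the urokinase receptor that binds beta chains from the side, measured 5.23, 6.13 and 5.53 CPM in WT and 11.7, 11.5 and 11.9 CPM in KO, the KO libraries all far above WT (1.06, standard error 0.075, edgeR adjusted p = 3.83e-07). Slc3a2, the CD98 heavy chain that binds Itgb1 tails, measured 171.8, 160.8 and 159.8 CPM in WT and 241.1, 230.9 and 228.1 CPM in KO, again apart (0.51, edgeR adjusted p = 6.45e-07). The tetraspanin Cd81 (0.28, adjusted p = 9.08e-05) and Emb (0.14, adjusted p = 0.011) rose as well, the latter with its call lost without KO replicate 2 (0.12, adjusted p = 0.077).

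**Figure D5:**
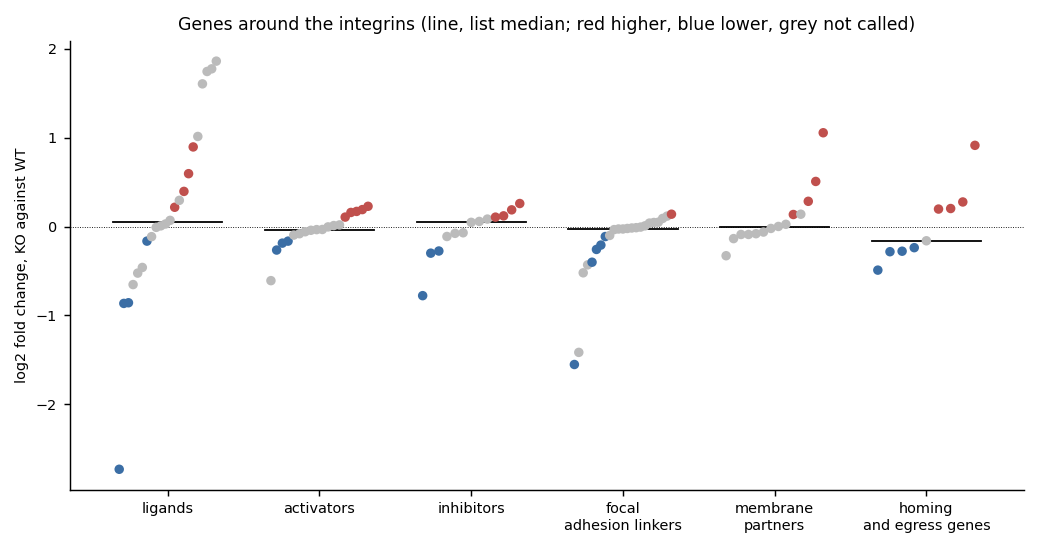
Log2 fold change of KO against WT for every tested gene of 6 lists around the integrins, 1 point a gene, in red where higher, in blue where lower and in grey where not called, with a line at the list median. Medians lie between -0.16 and 0.049, and each list but the membrane partners holds genes called in both directions.

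Integrins act after selectins and chemokine receptors in leaving the blood. All 9 listed homing and egress genes were tested, with 4 higher and 4 lower (median -0.16). Over all tested genes the shares were 12.0% higher and 12.1% lower. Ccr7, the lymph node homing receptor, measured 317.9, 307.1 and 317.2 CPM in WT and 603.6, 590.5 and 580.6 CPM in KO, the widest change of the list (0.91, edgeR adjusted p = 5.24e-10). The gut homing receptor Ccr9 was also higher (0.28, adjusted p = 0.00675). Lower in KO were the P-selectin ligand Selplg (-0.28, adjusted p = 3.7e-05), S1pr4 (-0.28, adjusted p = 0.000448) and Cxcr3 (-0.49, adjusted p = 1.71e-05). Of 5 effector Treg genes that the study itself names, and that are no independent evidence of direction here, 4 were lower and Nrp1 was not called. They include Icos (-0.21, adjusted p = 0.00152) and S100a6 (-0.93, adjusted p = 2.02e-08, all from edgeR).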

How the data were processed

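Bulk RNA-seq counts per gene symbol for 6 libraries were deposited by the authors without normalization. The submitters' processing notes name HISAT2, DESeq2 and mm10; the counting program, annotation and strand setting are not given in the sources used here. Groups and replicate numbers came from the labels. Where a symbol was repeated (40 rows), it was kept for the row of highest total. Rows were filtered, scaled and tested in R 4.3.3 with edgeR 4.0.16 (filterByExpr, TMM, robust quasi-likelihood), and alternatives used limma 3.58.1, DESeq2 1.42.0, other scalings and filters, a replicate block, gene exclusions and each library left out. The tests were tested on simulated data. Positions and lengths came from GENCODE for GRCm38, the build called mm10, and shared sequence was the share of 50-base transcript stretches found in other genes.

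The members and lists were chosen with earlier results of these data known. Named genes were the 10 chains, Zfp335, Xist, every tested other integrin chain and up to 6 called genes a list with the largest change. Icam1, Icam2, Tgfb1, Tln1, Fermt3, Rap1a, Rap1b, Rasgrp1, Rasgrp2, Rassf5, Fyb, Nrp1, Csf1r, Adgre1, Cd68, Gp1ba, Gp5, Gp9 and Itga8 were named besides, after their values were seen. The replicate numbers are not stated to be pairs, and the main fit did not pair the libraries. Itgb8, the chain with the fewest counts, had at least 3639 in each library. Some listed genes are not reported here by name.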

Additional observations from a re-analysis of the deposited data

How the results depend on the processing

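With the replicate block 6 integrin chains were called, and 4227 of all genes, while 1163 passed the supplemental cutoffs; the block changed no call among the 10 chains. Deviations of same-numbered libraries correlated at 0.0284, 0.00819 and 0.0326. Each KO library correlated best with the WT library of its own number, while WT replicate 2 correlated best with KO replicate 1 (0.0188). All of these values are small, so the check cannot tell whether the libraries were paired.

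Integrin chains called higher numbered 1 with upper-quartile scaling and 0 with scaling to library size only. The latter called 1622 genes higher and 2575 lower (38.6% higher) against 2082 and 2088 (49.9%), and its median over all genes was -0.035. Genes past the supplemental cutoffs numbered 572 with at least 1 CPM required in 3 libraries, against 1203, where 12110 genes were tested. With each library left out in turn, 3 to 7 of the 10 chains were called, 0 to 3 higher and 3 to 4 lower, together with 2740 to 4996 of all genes and 984 to 1423 past the supplemental cutoffs; 6 to 7 chain ratios did not overlap. Of these fits, those without WT replicate 2, KO replicate 1, KO replicate 2 or KO replicate 3 called Itgae, Itgb1 and Itgb3 only. Log2 fold changes that passed through 0 were those of chains that were not called: Itga6 (-0.021 to 0.0029), Itga9 (-0.0073 to 0.17), Itga10 (-0.013 to 0.044, and -0.0068 with library size only), Itgb5 (-0.00045 to 0.14) and Itgb6 (-1.14 to 0.21). The cause was not tested.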

Other observations

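The spread between libraries was unequal. For 9 of the 10 integrin chains the SD relative to the mean was smaller among the KO than among the WT libraries, as it was for 73.8% of the 6271 genes at least as abundant as the lowest chain. Itgae varied by 2.13% of its mean in WT and by 0.252% in KO, Itgb3 by 2.90% and 0.375%, and Itgal by 4.95% and 0.887%. An SD from 3 libraries is itself uncertain, and the difference in spread was not tested. Itgb8 was the exception, with 1.76% in WT and 3.19% in KO. Itgb7 had the widest spread of the 10 in WT, at 9.62% of its mean.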
